A study of Mus musculus with 6 samples.

Results

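The nuclear genes for subunits of the mitochondrial respiratory chain and of ATP synthase were followed in the aortas of ApoE−/− mice, either untreated or given vitamin E, and of B6 mice. Members were the probe sets whose annotated symbol is that of an Ndufa, Ndufb, Ndufc, Ndufs or Ndufv gene, of Sdha to Sdhd, of a Uqcr gene, of a Cox4 to Cox8 gene other than Cox8b, or of an Atp5 gene. Of the 45037 probe sets of the array that are not controls, 163 probe sets of 80 genes met this rule and carried only 1 symbol, out of 18193 genes that have such probe sets. Another 9 matching probe sets carry several symbols and were left out. Complex I had 71 probe sets of 33 genes, complex II had 9 of 4, complex III had 16 of 8, complex IV had 32 of 16 and complex V, the ATP synthase, had 31 of 17. The remaining 4 probe sets belong to Cox7a2l and Ndufa4l2, which the symbol brings in although their proteins are no constitutive subunits. Ndufa4 was counted with complex IV, to which its protein belongs.

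ApoE−/− mice lack apolipoprotein E, become hypercholesterolemic and develop atherosclerotic plaques, and those used here were on the C57BL/6J background. B6 mice were non-transgenic C57BL/6J controls. All mice entered the study when 4 to 6 weeks old and were fed a standard rodent chow with 7% fat and 0.15% cholesterol. The chow itself had no tocopherol acetate added, which is the form of vitamin E used for treatment. All mice were 32 to 34 weeks old when the aortas were taken and dissected free of fat. A group of ApoE−/− mice had been given vitamin E, an antioxidant, in a diet of 2000 IU per kg over 7 months, and their aortas are called treated below, those of the other ApoE−/− mice untreated. RNA of 3 aortas was pooled for each array, and each group had 2 arrays (n = 2), so that a p value here measures the spread between pools and not between mice. Sex is not given in the sources used here. The labels describe the arrays of untreated and B6 aortas together with a captopril experiment and those of treated aortas separately, so treatment and any difference in when the arrays were made cannot be told apart.

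Oxidative phosphorylation is carried out in the inner mitochondrial membrane. Complexes I and II take up electrons from NADH and succinate, complex III passes them to cytochrome c, complex IV reduces oxygen with them, and ATP synthase uses the proton gradient that complexes I, III and IV build. Most subunits are made from nuclear genes, and in complex IV some have tissue isoforms. Cox6a2 and Cox7a1 are the isoforms of heart and skeletal muscle, and brown fat carries them as well, while Cox6a1 and Cox7a2 are found in most tissues.

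Signal intensity in this text is the linear value of a probe set after scaling of the array. Probe sets differ in brightness for the same amount of RNA, so the brightness of a probe set describes its measurement and not how much of a transcript there was. A probe set was tested when its mean signal intensity reached 100 in at least 1 group, and a call, higher or lower, needed a limma p under 0.05 after Benjamini-Hochberg adjustment over all 17909 probe sets that were tested. This left 137 member probe sets of 76 genes. The 26 others had a mean signal intensity of at most 78.9, and among them are the probe sets of Ndufb4, Cox4i2 (the isoform of lung and hypoxia), Cox7b2 (an isoform of testis) and Cox7c, which therefore have no test. The members were bright, with a median mean signal intensity of 5046 against 293 over all probe sets tested.

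The mean signal intensity of the 6 arrays lay between 305 and 319. Apoe was at 5209 and 5432 in B6 aortas and between 40.5 and 93.2 on the 4 ApoE−/− arrays. For Gapdh, the 3′ signal over the 5′ signal was 1.34 and 1.36 in B6, 1.03 and 1.06 in untreated and 1.15 and 1.24 in treated aortas. For actin it was 2.01 and 2.06 in B6, 1.78 and 1.88 in untreated and 1.64 on both arrays of treated aortas, so the groups lay apart in both ratios and in a different order, and the part of RNA quality in the results was not tested. The smooth muscle marker Acta2 was between 8791 and 11061 on all arrays. Ucp1 and Cidea, which mark brown adipocytes, were between 6371 and 7911 and between 7453 and 9516, although the aortas were dissected free of fat. Array 2 of treated aortas was brighter for the members than array 1, with a median difference of 0.14 on the log2 scale and 105 of the 137 probe sets higher, while this difference was 0.00 in B6 and 0.01 in untreated aortas. Over all probe sets tested it was 0.02 in treated aortas.

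The 250 bases before the annotated start of 4 genes are given 5′ to 3′, from RefSeq on mouse assembly GRCm38.p6. Cox7a1 is the only muscle isoform among them and stands beside its partner Cox7a2. No such sequence was at hand for Cox6a2, so Cox6a1 stands without its muscle form, and Atp5g1 is no muscle isoform. Cox7a1 and Atp5g1, a gene for the c subunit of the ATP synthase rotor, had a higher signal intensity in untreated than in B6 aortas, and Cox7a2 and Cox6a1 did not. The windows are chr7:30183921-30184170 on the plus strand for Cox7a1, chr9:79759854-79760103 on the minus strand for Cox7a2, chr5:115348959-115349208 on the minus strand for Cox6a1 and chr11:96075632-96075881 on the minus strand for Atp5g1. Capitals mark matches to the core motifs of NRF1 and of ETS factors, both classical regulators of respiratory chain genes.
Cox7a1: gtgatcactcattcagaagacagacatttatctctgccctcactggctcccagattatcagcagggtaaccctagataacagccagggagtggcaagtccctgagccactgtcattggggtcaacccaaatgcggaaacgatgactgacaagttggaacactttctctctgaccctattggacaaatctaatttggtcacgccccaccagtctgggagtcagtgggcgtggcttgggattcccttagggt
Cox7a2: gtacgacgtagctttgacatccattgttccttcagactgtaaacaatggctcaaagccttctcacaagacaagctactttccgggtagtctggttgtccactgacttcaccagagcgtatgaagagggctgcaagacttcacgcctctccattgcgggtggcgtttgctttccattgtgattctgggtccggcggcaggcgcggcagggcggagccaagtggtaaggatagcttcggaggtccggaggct
Cox6a1: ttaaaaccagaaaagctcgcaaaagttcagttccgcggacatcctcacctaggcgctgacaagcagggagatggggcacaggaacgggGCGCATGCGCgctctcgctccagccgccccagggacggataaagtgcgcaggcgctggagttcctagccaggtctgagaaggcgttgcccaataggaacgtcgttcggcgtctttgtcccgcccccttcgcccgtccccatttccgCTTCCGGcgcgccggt
Atp5g1: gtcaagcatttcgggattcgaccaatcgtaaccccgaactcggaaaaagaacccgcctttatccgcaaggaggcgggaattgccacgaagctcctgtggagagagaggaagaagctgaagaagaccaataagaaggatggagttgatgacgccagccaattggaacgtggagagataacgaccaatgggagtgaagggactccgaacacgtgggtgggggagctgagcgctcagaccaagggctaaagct
The motifs searched on both strands were GCATGCGC for NRF1, CCGGAAG for ETS factors and AAGATGGCG for YY1, in windows of 300 bases that also hold the 50 bases from the start onwards. Cox6a1 held NRF1 motifs on both strands, which overlap each other in the first capital run, and an ETS motif in the second run, whereas the other 3 windows held none of these letters. Of the 80 member genes, 65 had a window. The NRF1 core was in 13.8% of these genes and in 3.05% of all 27025 genes with a window, the ETS core in 26.2% and 9.93%, and the YY1 core in 9.23% and 1.64%. The median GC content of the 250 bases before the start was 57% in the members' windows and 52.4% in all. A match is no evidence of binding, and a missing match says only that the letters are not in the window.

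Untreated ApoE−/− aortas had lower signal intensities than B6 aortas for several complex I genes and higher ones for the muscle isoforms of complex IV and for Sdhc and Sdhd of complex II. Of the 137 member probe sets, 25 (18.2%) were called lower, against 19.1% of all probe sets tested, and 14 (10.2%) were called higher, against 21.7%. The share called lower was thus close to that of the array, and the share called higher was smaller. The median log2 fold change of the members was −0.09 and that of all probe sets 0.03. Counted by gene, with the brightest probe set standing for each of the 76 genes, 15 were lower and 6 higher. These counts rest on the spread of all 3 groups. Without array 1 or 2 of B6 there were 4 and 3 lower and 6 and 8 higher ones, without array 1 or 2 of untreated aortas 4 and 3 lower and 7 and 7 higher, and without array 1 or 2 of treated aortas 60 and 60 lower and 22 and 23 higher.

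Vitamin E-treated ApoE−/− aortas differed from untreated ones at few members, among which were again the muscle isoforms, now in the opposite direction. Here 15 of 137 probe sets (10.9%) were called lower, against 6.99% of all probe sets tested, and 1 (0.73%) was called higher, against 8.52%. The median was −0.08 and that of all probe sets 0.00. By gene, 7 of 76 were lower and 0 higher with limma, while 14 and 2 had an unadjusted p under 0.05. Without array 1 or 2 of untreated aortas 2 and 3 probe sets were lower, and without array 1 or 2 of treated aortas 29 and 43. The higher calls numbered 25 without array 1 of treated aortas, 1 without their array 2, and 0 on leaving out any other array. The median was 0.00 without array 1 of treated aortas and −0.14 without their array 2, so this median depended on which pool of treated mice was kept.

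Between treated and B6 aortas, 42 of 137 probe sets (30.7%) were called lower, against 19.2% of all, and 3 (2.19%) were called higher, against 21.9%. The median was −0.15, that of all probe sets 0.02, and by gene 23 of 76 were lower and 2 higher. Without array 1 or 2 of treated aortas the lower calls numbered 49 and 91 and the higher ones 9 and 6, and without array 1 or 2 of B6 the lower calls fell to 12 and 13. Without array 1 or 2 of untreated aortas, which enter this comparison only through the spread, they were 23 and 23. The 3 comparisons share arrays in pairs, so their counts are not independent of each other.

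**Figure D1:**
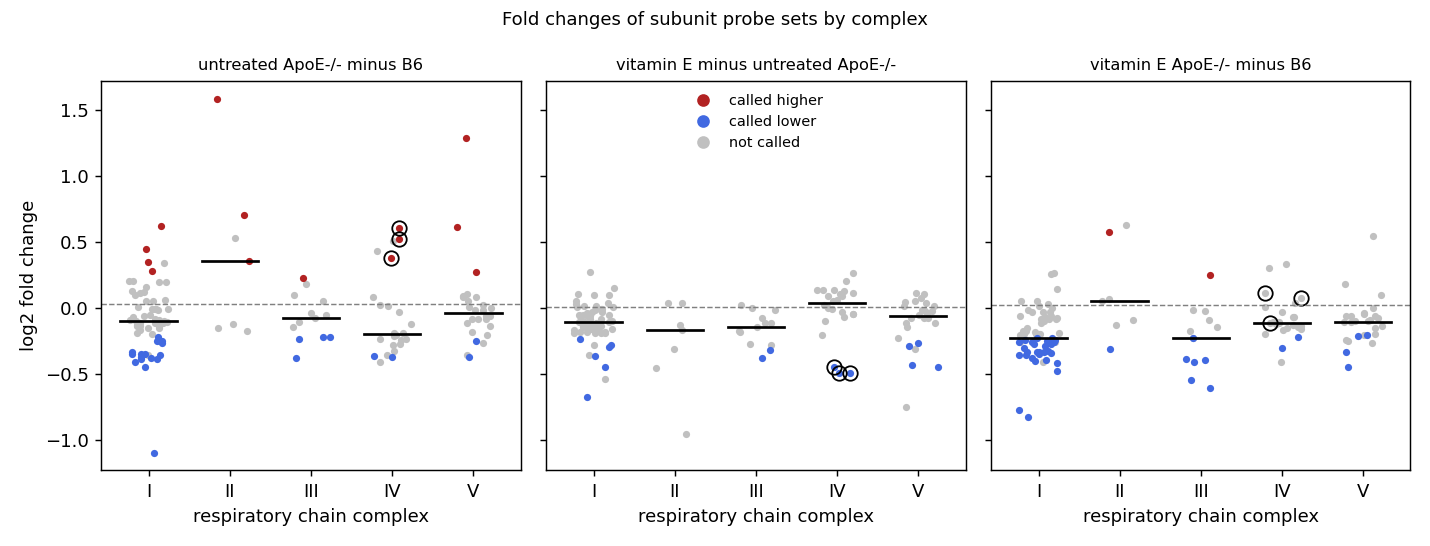
Log2 fold change (vertical axis) of the 133 member probe sets of complexes I to V (horizontal axis) in the 3 comparisons. Each point is a probe set, black lines are medians, the dashed line is the median of all probe sets tested, and black rings mark the muscle isoforms Cox6a2 (2 probe sets) and Cox7a1. On the left the rings of Cox6a2 lie above the other members of complex IV, and that of Cox7a1 lies below 1 probe set each of Cox8c and Cox6c, which were not called. In the middle all rings lie below the others, and on the right among them.

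The members lie among the brightest probe sets, so they were also set beside probe sets of like brightness. Of the 888 probe sets that averaged 3000 or more, 106 were members, and this limit was chosen after the data were seen. In untreated against B6 aortas 22.1% of the 888 were called lower and 13.4% higher, and of the 106 members 19.8% and 5.66%. In treated against untreated aortas the shares were 8.78% lower and 6.19% higher among the 888, and 5.66% lower and 0 of 106 higher among the members, of which 1 had an unadjusted limma p under 0.05. In treated against B6 aortas they were 22% lower and 12.2% higher among the 888, and 32.1% and 0.943% among the members. The median log2 fold changes of the bright probe sets were −0.09, 0.01 and −0.06, and those of the bright members −0.12, −0.05 and −0.16. The 31 dimmer members had medians against B6 of 0.19 in untreated and 0.03 in treated aortas, with 4 lower and 8 higher in the first and 8 lower and 2 higher in the second. In treated against untreated aortas their median was −0.28, with 9 lower (29%) and 1 higher (3.23%). Of all probe sets under 3000, 6.89% were lower and 8.64% higher in that comparison. These medians of the dimmer members took the same course as the muscle isoforms below. Atp5g1, Ndufb2 and a probe set of Cox6a2 are among the 31.

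**Figure D2:**
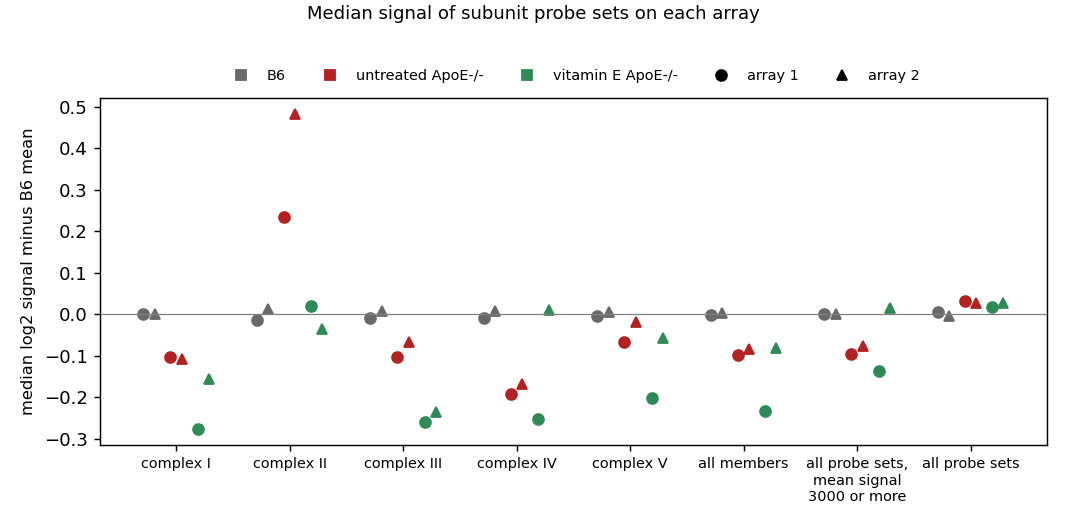
Median over probe sets of the log2 signal intensity on each array minus the mean of the B6 arrays (vertical axis), for complexes I to V, all members, all probe sets that averaged 3000 or more and all probe sets tested (horizontal axis). Circles are array 1, triangles array 2. Arrays 1 and 2 of treated aortas lie at −0.23 and −0.08 for all members, and the bright probe sets of the array move apart in the same way, at −0.14 and 0.02.

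The muscle isoforms of cytochrome c oxidase were higher in untreated aortas than in both other groups. Cox6a2, the muscle form of subunit VIa of cytochrome c oxidase, had a signal intensity of 2900 and 2844 in B6, 4421 and 4320 in untreated and 3028 and 3187 in treated aortas. The arrays of untreated aortas were the highest and overlapped with neither other group. This was 1.52-fold higher in untreated than in B6 aortas (a log2 fold change of 0.61, standard error 0.06, limma adjusted p = 0.000323) and 1.41-fold lower in treated than in untreated aortas (log2 fold change −0.49, standard error 0.06, limma adjusted p = 0.00288). In treated against B6 aortas the log2 fold change was 0.11 (limma adjusted p = 0.181). A second probe set of Cox6a2 was also called higher and then lower, with log2 fold changes of 0.52 and −0.45. The calls of the first, brighter probe set held without each array in turn. In whole aortas, more cells of a type and more RNA in each cell cannot be told apart.

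Cox7a1, the muscle form of subunit VIIa, had a signal intensity of 4000 and 4301 in B6, 5401 and 5360 in untreated and 4077 and 3592 in treated aortas. Again the untreated aortas lay above both other groups, and those overlapped with each other. The log2 fold change was 0.38 in untreated against B6 (standard error 0.08, limma adjusted p = 0.00883), −0.49 in treated against untreated (standard error 0.08, limma adjusted p = 0.00886) and −0.12 in treated against B6 aortas (limma adjusted p = 0.283). The first call was lost without array 1 of B6 (adjusted p = 0.0873) and without array 1 or 2 of untreated aortas (adjusted p = 0.0628 and 0.0601), and the second without array 1 or 2 of untreated aortas (adjusted p = 0.0736 and 0.0744), with the direction kept each time. Without the filter on low values both were lost (adjusted p = 0.0859 and 0.1).

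The forms of other tissues were not called in any comparison by the brightest probe set of each gene. Cox6a1 was at 12560 and 12474 in B6, 9389 and 10174 in untreated and 9383 and 13543 in treated aortas, where the pools of treated mice lay farther apart than the groups (limma adjusted p = 0.106, 0.408 and 0.471). Cox7a2 was at 11621 and 11808 in B6, 10262 and 10250 in untreated and 9938 and 10951 in treated aortas (limma adjusted p = 0.0878, 0.863 and 0.126). A second probe set of Cox7a2 was called lower in treated than in B6 aortas (log2 fold change −0.22, limma adjusted p = 0.0463). As a difference of log2 fold changes, Cox6a2 stood 0.96 above Cox6a1 in untreated against B6 aortas and 0.70 below it in treated against untreated ones, and Cox7a1 stood 0.57 above and 0.52 below Cox7a2. The ratios of the isoforms did not overlap between the groups in these 4 comparisons. An exact two-sided permutation test over arrays gave p = 0.333 for each, which is the smallest p that 2 against 2 arrays allow. Over all arrays Cox6a2 and Cox7a1 averaged 3450 and 4455, and their brighter partners Cox6a1 and Cox7a2 averaged 11254 and 10805. The part of brightness in these differences was not tested.

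**Figure D3:**
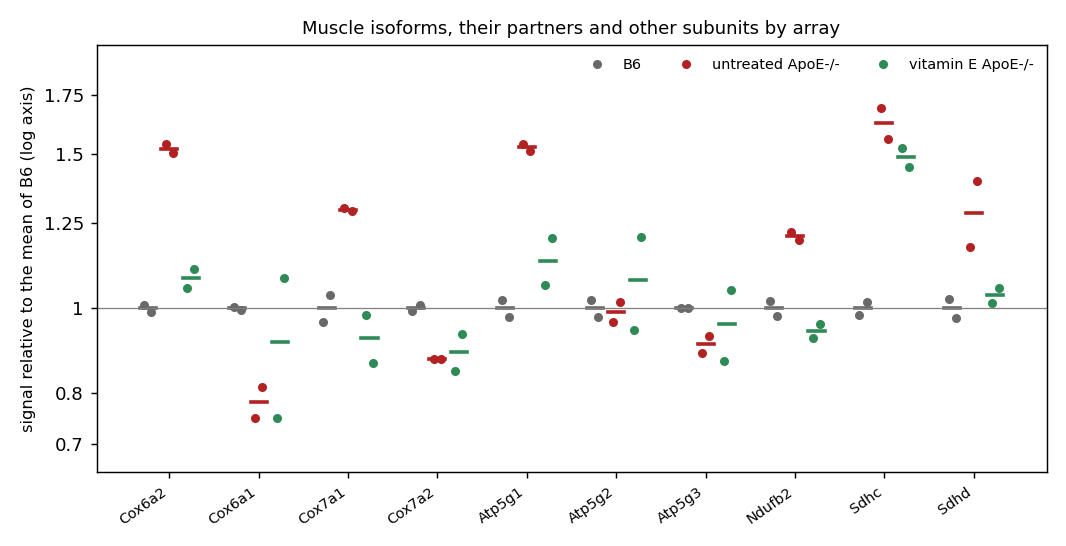
Signal intensity of 10 genes on each array, relative to the mean of the B6 arrays (vertical log axis). Points are arrays and bars are group means. Cox6a2, Cox7a1, Atp5g1 and Ndufb2 are highest in untreated aortas, Sdhc is high in both groups of ApoE−/− mice, and Cox6a1, Cox7a2, Atp5g2 and Atp5g3 show no such rise.

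The other subunits of complex IV, the cytochrome c oxidase, had a lower median in untreated aortas. Without the tissue isoforms, 2 of 19 probe sets were called lower (10.5%, against 19.1% of all probe sets tested) and 0 higher against B6 with limma (unadjusted p under 0.05 in 9 and 1), and the median was −0.21. In treated against untreated aortas 0 of 19 were called in either direction (unadjusted p under 0.05 in 1 higher and 0 lower) and the median was 0.09. Cox6c was at 10254 and 10250 in B6, 7888 and 7960 in untreated and 8433 and 10701 in treated aortas. It was called lower in untreated than in B6 aortas (log2 fold change −0.37, limma adjusted p = 0.0324), a call lost on leaving out any of the 4 arrays compared (adjusted p = 0.14 to 0.151), without the filter on low values (adjusted p = 0.23) and without the intensity trend in limma (adjusted p = 0.0622). Cox4i1, whose protein binds ATP as the regulatory subunit IV, had log2 fold changes of −0.23, 0.11 and −0.13 in untreated against B6, treated against untreated and treated against B6 aortas, and was not called. Likewise not called were Cox6b1 (−0.28, 0.14 and −0.14), Cox8a (0.01, −0.04 and −0.03) and Ndufa4 (−0.23, 0.09 and −0.15). The testis isoforms Cox6b2 and Cox8c had mean signal intensities near 100 and were not called.

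ATP synthase, complex V, held 1 further gene with the pattern of the muscle isoforms by its brightest probe set. Atp5g1, 1 of 3 genes that encode the same mature c subunit, was at 1341 and 1283 in B6, 2021 and 1983 in untreated and 1396 and 1578 in treated aortas, so that the untreated aortas stood apart from both other groups. It was higher in untreated than in B6 aortas (a log2 fold change of 0.61, standard error 0.07, limma adjusted p = 0.000744) and lower in treated than in untreated ones (log2 fold change −0.43, standard error 0.07, limma adjusted p = 0.0103), the second call being lost without array 1 or 2 of untreated aortas (adjusted p = 0.0802 and 0.0732) and without the filter on low values (adjusted p = 0.0995). Atp5g2 had log2 fold changes of −0.01 and 0.11 and Atp5g3 of −0.14 and 0.07 in the same comparisons, and neither was called. The ratio of Atp5g1 to Atp5g2 changed by 0.62 and −0.54 on the log2 scale and that to Atp5g3 by 0.75 and −0.50, without overlap between the groups (exact permutation p = 0.333, the smallest possible). Atp5g1 was named because its own calls did not overlap between groups, so the lack of overlap in these ratios is no separate result. It was also dimmer, with a mean signal intensity of 1600 over all arrays, against 4415 for Atp5g2 and 7416 for Atp5g3. The part of brightness in these ratios was not tested.

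Complex V as a whole, Atp5g1 included, held calls in both directions. Of its 26 probe sets, 2 were lower (7.69%, against 19.1% of all probe sets tested) and 3 higher (11.5%, against 21.7%) in untreated than in B6 aortas. Both shares lay below those of the array. With vitamin E against untreated aortas 4 were lower (15.4%, against 6.99%) and 0 higher (against 8.52%, unadjusted limma p under 0.05 in 7 and 0). In treated against B6 aortas 4 were lower (15.4%, against 19.2%) and 0 higher (against 21.9%, unadjusted limma p under 0.05 in 6 and 1). Atp5c1, the central stalk subunit gamma, was at 8651 and 9074 in B6, 6783 and 6900 in untreated and 6167 and 6838 in treated aortas. It was lower in both groups of ApoE−/− mice than in B6 (log2 fold changes −0.37 and −0.45, limma adjusted p = 0.00761 and 0.00354). The call in untreated aortas was lost on leaving out any of the 4 arrays compared (adjusted p = 0.0508 to 0.0798) and without the filter (adjusted p = 0.0706), and that in treated aortas held without each array. Atp5md, a small membrane subunit of the enzyme, was at 4843 and 4132 in B6, 4884 and 4760 in untreated and 3618 and 3471 in treated aortas. Here the treated aortas were lowest, with log2 fold changes of −0.44 against untreated (limma adjusted p = 0.0153) and −0.34 against B6 (limma adjusted p = 0.0176). The first was lost without array 1 or 2 of untreated aortas (adjusted p = 0.109 and 0.0969) and the second without array 1 of B6 (adjusted p = 0.134), and both without the filter (adjusted p = 0.14 and 0.131).

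Atp5h, peripheral stalk subunit d, had log2 fold changes of −0.25 and −0.21 in untreated and treated against B6 aortas (limma adjusted p = 0.0235 and 0.0414). On leaving out any of the 4 arrays compared the adjusted p was 0.139 to 0.17 in the first comparison, and in the second it was lost on leaving out any B6 or untreated array (adjusted p = 0.123 to 0.224). After quantile normalization the changes were −0.07 and −0.14 (adjusted p = 0.419 and 0.111), and without the filter the adjusted p was 0.0934 and 0.127. The second call was also lost without the intensity trend (adjusted p = 0.072) and in a fit of the 2 groups alone (adjusted p = 0.125). Atp5pb, subunit b of the same stalk, differed by probe set. Its brightest probe set was not called, and a dimmer one was higher in untreated than in B6 aortas (log2 fold change 0.27) and lower with vitamin E (−0.27). Atp5o, the oligomycin sensitivity subunit, was called lower by its brightest probe set in treated than in untreated aortas (−0.29, limma adjusted p = 0.028) and than in B6 aortas (−0.21, limma adjusted p = 0.0411). A dimmer probe set of Atp5o was called higher in untreated than in B6 aortas (1.29, limma adjusted p = 0.0129) and gave 2531 and 1163 on the arrays of treated aortas.

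Complex II, succinate dehydrogenase, also belongs to the tricarboxylic acid cycle, and its membrane anchors were called higher in untreated than in B6 aortas, which its catalytic subunits were not. Sdhc, the large anchor of cytochrome b, was at 1920 and 1988 in B6, 3309 and 3051 in untreated and 2975 and 2836 in treated aortas. Both ApoE−/− groups lay above B6, with log2 fold changes of 0.70 (standard error 0.07, limma adjusted p = 0.00025) and 0.57 (standard error 0.07, limma adjusted p = 0.000696), and both calls held without each array in turn. Vitamin E-treated against untreated aortas gave −0.13 (limma adjusted p = 0.236). Sdhd, the small anchor, was at 3459 and 3291 in B6, 3966 and 4715 in untreated and 3423 and 3559 in treated aortas, and was called higher in untreated than in B6 aortas (log2 fold change 0.36, limma adjusted p = 0.0166). That call was lost without array 1 or 2 of B6 (adjusted p = 0.0718 and 0.114) and without array 2 of untreated aortas (adjusted p = 0.125) and without the filter (adjusted p = 0.138). Vitamin E-treated against untreated aortas gave −0.31 (limma adjusted p = 0.0581).

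The flavoprotein Sdha had log2 fold changes of −0.13 in untreated and −0.09 in treated against B6 aortas and was not called. The iron-sulfur subunit Sdhb was at 9192 and 8855 in B6, 7823 and 8445 in untreated and 6692 and 7860 in treated aortas, and was called lower in treated than in B6 aortas alone (log2 fold change −0.31, limma adjusted p = 0.0321). The call was lost on leaving out any array of B6 or of untreated aortas (adjusted p = 0.068 to 0.181), without the filter (adjusted p = 0.199), without the intensity trend (adjusted p = 0.0635) and in a fit of the 2 groups alone (adjusted p = 0.0668). A second Sdhc probe set, which may hybridise to other transcripts by its type, was at 725 and 1868 on the arrays of untreated aortas and was called higher there than in B6 (1.58, limma adjusted p = 0.0142).

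Complex I, the NADH dehydrogenase and largest of the complexes, held 63 of the 137 tested member probe sets. In untreated aortas 16 were lower than in B6 (25.4%, against 19.1% of all probe sets tested) and 4 higher (6.35%, against 21.7%), with a median log2 fold change of −0.10. In treated against untreated aortas 6 were lower (9.52%, against 6.99%) and 0 higher (unadjusted limma p under 0.05 in 14 and 0), with a median of −0.11. In treated against B6 aortas 29 were lower (46%, against 19.2%) and 0 higher (unadjusted limma p under 0.05 in 38 and 1), with a median of −0.23. Of the 888 probe sets that averaged 3000 or more, 22.1% were lower and 13.4% higher in untreated than in B6 aortas. In treated against untreated aortas 8.78% of the 888 were lower and 6.19% higher, and in treated against B6 aortas 22% and 12.2%. By gene the counts against B6 were 10 of 32 lower and 1 higher in untreated, and in treated aortas 15 of 32 lower and 0 higher (unadjusted limma p under 0.05 in 19 and 0). Ndufs7, a core subunit with an iron-sulfur cluster, was at 7005 and 6482 in B6, 5024 and 4879 in untreated and 4583 and 5106 in treated aortas. The ApoE−/− groups overlapped with each other and lay below B6, by −0.44 and −0.48 on the log2 scale (standard error 0.08 each, limma adjusted p = 0.00407 and 0.00305). The first call was lost without array 1 of B6 (adjusted p = 0.0513) and without the filter (adjusted p = 0.0573).

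Ndufs8, another core subunit with iron-sulfur clusters, had 5 tested probe sets that moved by different amounts. The brightest was at 8524 and 8648 in B6, 6228 and 6676 in untreated and 5639 and 7334 in treated aortas, with log2 fold changes against B6 of −0.41 and −0.42 (limma adjusted p = 0.029 and 0.0279). Those calls were lost on leaving out any B6 or untreated array (adjusted p = 0.0546 to 0.157), without the filter (adjusted p = 0.223 and 0.221) and without the intensity trend (adjusted p = 0.0596 and 0.0579), and the second also in a fit of the 2 groups alone (adjusted p = 0.0537). In treated against untreated aortas it gave −0.00, while 2 dimmer probe sets of the gene were called lower at −0.67 and −0.44. Which of them reflects the transcript was not tested.

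Several accessory subunits of complex I were also called lower. Ndufa1, which is needed for assembly of the membrane arm, was at 10264 and 10062 in B6, 8103 and 8026 in untreated and 8275 and 9050 in treated aortas (log2 fold changes against B6 −0.33 and −0.23, limma adjusted p = 0.0107 and 0.042). The first was lost on leaving out any of the 4 arrays compared (adjusted p = 0.078 to 0.0994), the second on leaving out any B6 or untreated array (adjusted p = 0.113 to 0.22), without the intensity trend (adjusted p = 0.0756) and in a fit of the 2 groups alone (adjusted p = 0.115), and both without the filter (adjusted p = 0.0814 and 0.161). Ndufa7 was called lower in treated than in untreated aortas (log2 fold change −0.23, limma adjusted p = 0.0448) and than in B6 aortas (−0.24, limma adjusted p = 0.0177), and all 5 of its probe sets were called lower in the second comparison. Its brightest probe set lost both calls on leaving out any B6 or untreated array (adjusted p = 0.0524 to 0.252), without the intensity trend (adjusted p = 0.109 and 0.0535) and in a fit of the 2 groups alone (adjusted p = 0.113 and 0.0511), and the first also without the filter (adjusted p = 0.0892) and after median centring (adjusted p = 0.0543). Ndufa13, also known as GRIM-19, was at 6978 and 10494 on the arrays of treated aortas and was not called.

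Ndufb2, an accessory subunit of the membrane arm, was the 1 gene of complex I called higher by its brightest probe set in untreated aortas. It was at 2839 and 2727 in B6, 3404 and 3333 in untreated and 2573 and 2671 in treated aortas, which places it with Cox6a2, Cox7a1 and Atp5g1. The log2 fold change was 0.28 in untreated against B6 (limma adjusted p = 0.00996) and −0.36 in treated against untreated aortas (limma adjusted p = 0.00951), and a second probe set gave 0.35 and −0.30 and was called in both. Without array 1 or 2 of B6 the first call was lost (adjusted p = 0.0516 and 0.0887), and without array 1 or 2 of untreated aortas both were (adjusted p = 0.0629 to 0.0898). Ndufa12 was ambiguous, since in untreated against B6 aortas 1 probe set was called lower at −0.35 and another higher at 0.44, and its brightest gave −0.20 (limma adjusted p = 0.0512). In treated against B6 aortas the brightest was called lower at −0.23 (limma adjusted p = 0.0309), which was lost on leaving out any B6 or untreated array (adjusted p = 0.0942 to 0.175), without the filter (adjusted p = 0.0971), without the intensity trend (adjusted p = 0.0618) and in a fit of the 2 groups alone (adjusted p = 0.0947).

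Complex III, the cytochrome bc1 complex, was lower in ApoE−/− aortas at some subunits. In untreated aortas 4 of 13 probe sets were lower than in B6 (30.8%, against 19.1% of all probe sets tested) and 1 higher (7.69%, against 21.7%), and in treated aortas 6 were lower (46.2%, against 19.2%) and 1 higher (7.69%, against 21.9%). With vitamin E against untreated aortas 2 were lower (15.4%, against 6.99%) and 0 higher by limma (unadjusted p under 0.05 in 6 and 0). Uqcrc2, a core subunit, was at 8930 and 8936 in B6, 7482 and 7704 in untreated and 6908 and 6568 in treated aortas, so that the 3 groups did not overlap. The log2 fold changes against B6 were −0.23 and −0.41 (limma adjusted p = 0.0294 and 0.00318). The second call held without each array, and the first was lost on leaving out any of the 4 arrays compared (adjusted p = 0.142 to 0.201), after quantile normalization (log2 fold change −0.12, adjusted p = 0.226), without the filter on low values (adjusted p = 0.0917) and without the intensity trend (adjusted p = 0.0608).

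The brightest probe set of Uqcrh, the hinge subunit, was lower in both groups of ApoE−/− mice than in B6 (log2 fold changes −0.38 and −0.40, limma adjusted p = 0.00471 and 0.00402). Another probe set of the gene was called higher in both (0.23 and 0.25), so the gene has no settled direction. Without array 2 of B6 both lower calls were lost (adjusted p = 0.0608 and 0.0539), and without array 2 of untreated aortas the first was (adjusted p = 0.0707). Uqcrb, which was between 13660 and 16570 on the 6 arrays, was not called. Of Uqcr10, a small subunit of the complex, 2 dimmer probe sets were called lower in all 3 comparisons, down to −0.54 and −0.61 in treated against B6 aortas, and the brightest in none (−0.08, −0.15 and −0.23).

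The proteins that the symbols bring in without being constitutive subunits were Cox7a2l, which joins complexes III and IV into supercomplexes, and Ndufa4l2, which hypoxia induces. Ndufa4l2 was dim, at 184 and 93.5 in B6, 195 and 246 in untreated and 317 and 344 in treated aortas, and the spread in B6 was large. It was called higher in treated than in B6 aortas (log2 fold change 1.33, limma adjusted p = 0.00881), a call lost without the filter on low values (adjusted p = 0.146), while untreated against B6 aortas gave 0.74 (limma adjusted p = 0.0741). Among 3 probe sets of Cox7a2l, 1 was the only member called higher in treated than in untreated aortas (log2 fold change 0.26, limma adjusted p = 0.043), and another was called lower in untreated than in B6 aortas (−0.27).

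Markers of heart muscle moved in the same direction as Cox6a2 and Cox7a1. The counts of markers stand against 19.1% lower and 21.7% higher over all probe sets tested in untreated against B6 aortas. In treated against untreated aortas these shares were 6.99% and 8.52%, and in treated against B6 aortas 19.2% and 21.9%. Of 27 probe sets of 18 cardiac muscle genes, 23 were called higher and 4 lower in untreated than in B6 aortas (median log2 fold change 0.97), and 20 lower and 4 higher in treated than in untreated ones (median −0.84). Their summed signal intensity was 56518 and 55766 in B6, 96510 and 94928 in untreated and 58201 and 63241 in treated aortas, highest in the untreated as for the isoforms. The atrial light chain Myl7 was at 5447 and 5096, 8594 and 9019, and 5163 and 6384 in these groups, so no group lacked heart muscle transcripts. The part of these cells in the signal of the muscle isoforms was not tested.

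Skeletal muscle markers went the other way. Of 24 probe sets of 20 genes, 18 were lower and 0 higher in untreated than in B6 aortas with limma (unadjusted p under 0.05 in 20 and 0), and 23 were higher and 0 lower in treated than in untreated ones (unadjusted p under 0.05 in 23 and 0). Their summed signal intensity was 80185 and 80113 in B6, 47428 and 47937 in untreated and 90654 and 104034 in treated aortas. Of these 24 probe sets, 1 reached the filter on low values in 1 group alone, and it was called. Of 15 probe sets of brown adipocytes, in which respiratory chain genes are abundant, 8 were lower and 1 higher in untreated than in B6 aortas, and 9 lower and 0 higher in treated than in B6 aortas (unadjusted limma p under 0.05 in 11 and 0). Their sum was 40467 and 40508 in B6, 34233 and 34440 in untreated and 31509 and 35953 in treated aortas, and in treated against untreated aortas 4 were higher and 2 lower (median 0.03). Their part in the members' changes was not tested.

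Markers of other cells were counted in the same way. T cell and thymocyte markers were higher in ApoE−/− aortas (15 of 16 probe sets in untreated and 16 of 16 in treated against B6), macrophage markers were higher at 6 of 10 and 5 of 10 probe sets, with 0 and 1 lower, and liver markers were lower at 17 of 17 in each, 5 of which reached the filter on low values in B6 aortas alone. Of the 16 T cell and thymocyte probe sets, 1 reached this filter in 1 group alone, and it was called. Of 11 probe sets of adipocytes in general, 6 were lower and 3 higher in untreated than in B6 aortas. Of 17 probe sets of contractile smooth muscle 3 were lower (17.6%) and 1 higher (5.88%) in untreated than in B6 aortas. The lower share was close to the 19.1% of all probe sets tested, and the higher share was below their 21.7%. In treated against B6 aortas 9 were lower (52.9%, against 19.2%) and 2 higher (11.8%, against 21.9%).

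**Figure D4:**
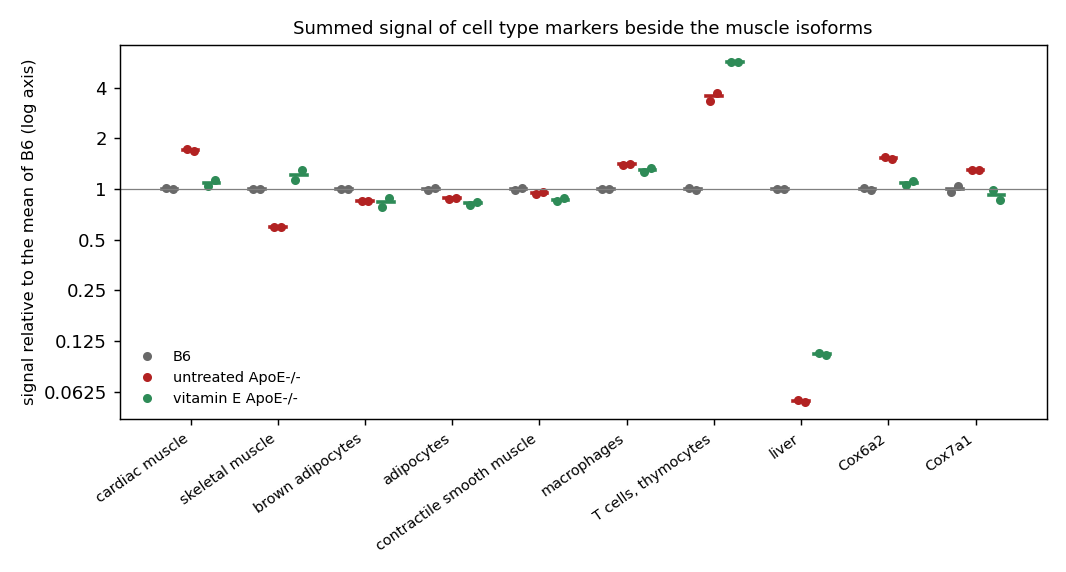
Summed signal intensity of the marker probe sets of 8 tissues or cell types, and signal intensity of Cox6a2 and Cox7a1, on each array relative to the mean of the B6 arrays (vertical log axis). Points are arrays and bars are group means. Cardiac muscle is highest in untreated aortas like the isoforms beside it, and skeletal muscle is lowest there.

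Genes that assemble or feed the complexes were read from lists of the pathway. The shares of these lists stand against 19.1% lower and 21.7% higher over all probe sets tested in untreated against B6 aortas, 6.99% and 8.52% in treated against untreated, and 19.2% and 21.9% in treated against B6 aortas. Of 18 probe sets of complex I assembly factors, 2 (11.1%) were lower and 0 higher in untreated than in B6 aortas by limma (unadjusted p under 0.05 in 2 and 1), 1 (5.56%) was lower and 0 higher with vitamin E against untreated aortas (4 and 1), and 7 (38.9%) were lower and 0 higher in treated than in B6 aortas (7 and 0). Foxred1, an oxidoreductase of complex I assembly, was at 558 and 601 in B6, 452 and 422 in untreated and 425 and 391 in treated aortas and was called lower in both (log2 fold changes −0.41 and −0.50). Ndufaf4 was called lower in untreated aortas (−0.32), Timmdc1 in treated ones against B6 (−0.39) and Ecsit with vitamin E against untreated aortas (−0.45).

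Of 33 probe sets of complex II, III and IV assembly factors, 6 were lower and 6 higher (18.2% each) in untreated than in B6 aortas, and 1 higher (3.03%) and 10 lower (30.3%) in treated than in B6 aortas. Sdhaf4, a chaperone that helps Sdha join Sdhb, was at 1218 and 1209 in B6, 841 and 751 in untreated and 773 and 798 in treated aortas (log2 fold changes −0.61 and −0.63, limma adjusted p = 0.000712 and 0.000681). Sdhaf3 was called lower in both as well (−0.55 and −0.74). With vitamin E against untreated aortas 3 were lower (9.09%) and 0 higher (unadjusted limma p under 0.05 in 7 and 0), among them Cox19 (−0.71), a copper chaperone of complex IV, and Uqcc1 (−0.42), a complex III assembly factor that had been called higher in untreated than in B6 aortas (0.52).

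Of 5 probe sets for assembly or inhibition of ATP synthase, 0 were called in untreated against B6 aortas (unadjusted limma p under 0.05 in 1 higher and 0 lower), and Tmem70, which ATP synthase assembly needs, was called lower with vitamin E against untreated (−0.31) and against B6 aortas (−0.36). Atpif1, the inhibitor of the enzyme, was called higher in treated than in B6 aortas (0.29). Of 29 probe sets of electron carriers and adenine nucleotide transport, 7 were lower (24.1%) and 3 higher (10.3%) in untreated and 6 lower (20.7%) and 1 higher (3.45%) in treated against B6 aortas, and 2 (6.9%) were lower and 0 higher with vitamin E against untreated aortas (unadjusted limma p under 0.05 in 6 and 1). Etfdh, which passes electrons of fatty acid oxidation to ubiquinone, was at 3327 and 3294 in B6, 2135 and 2257 in untreated and 1885 and 1970 in treated aortas (log2 fold changes −0.59 and −0.78, limma adjusted p = 0.000371 and 0.000127). Cyc1, cytochrome c1 of complex III, whose symbol lies outside the rule, was called lower in both (−0.46 and −0.45).

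Of 32 probe sets of the tricarboxylic acid cycle, 5 were lower (15.6%) and 6 higher (18.8%) in untreated than in B6 aortas, 0 higher and 11 lower (34.4%) with vitamin E against untreated aortas (unadjusted limma p under 0.05 in 0 and 14), and 4 higher (12.5%) and 15 lower (46.9%) in treated than in B6 aortas. Citrate synthase, Cs, was called lower in untreated than in B6 aortas by its brightest probe set (−0.40) and by neither of its 2 others (−0.10 and 0.04). Idh2 was called higher in the same comparison (0.52). With vitamin E against untreated aortas Pdhx (−0.47) and Dld (−0.38), both of the pyruvate dehydrogenase complex, were called lower, and against B6 Suclg1 (−0.42) and Idh3b (−0.40) were.

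Protein synthesis in the mitochondrion and in the cytoplasm was set beside the subunits. Of 114 probe sets of mitochondrial ribosomal proteins, 13 were lower (11.4%) and 25 higher (21.9%, close to the share of all probe sets) in untreated than in B6 aortas, 0 higher and 17 lower (14.9%) with vitamin E against untreated aortas (unadjusted limma p under 0.05 in 0 and 39), and 4 higher (3.51%) and 23 lower (20.2%) in treated than in B6 aortas. The largest changes by gene were those of Mrps27 and Mrpl54 (0.56 each) in the first comparison, Mrps11 (−0.61) and Mrpl50 (−0.50) in the second, and Mrpl47 and Mrpl41 (−0.53 each) in the third. Of 85 probe sets of cytoplasmic ribosomal proteins, 7 were higher (8.24%) and 3 lower (3.53%), 2 higher and 2 lower (2.35% each), and 16 higher (18.8%) and 1 lower (1.18%) in the 3 comparisons in the same order. In each of these 2 lists 1 of the called probe sets had reached the filter on low values in 1 group alone. Of the genes of mitochondrial DNA only ND5 had a probe set under its symbol, at 17208 and 17873 in B6, 13861 and 14434 in untreated and 13524 and 16066 in treated aortas (log2 fold change of untreated against B6 −0.31, limma adjusted p = 0.0423).

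Regulators of mitochondrial genes held calls in both directions. Of 25 probe sets, 10 were lower (40%) and 4 higher (16%) in untreated than in B6 aortas (median −0.14), 2 higher (8%) and 1 lower (4%) with vitamin E against untreated aortas (median −0.02), and 2 higher (8%) and 9 lower (36%) in treated than in B6 aortas (median −0.18). All 5 probe sets of Ppargc1a are among the lower ones in the first and the last comparison. Ppargc1a, the coactivator PGC-1α that raises the transcription of respiratory chain genes, was at 359 and 331 in B6, 109 and 88.4 in untreated and 129 and 156 in treated aortas. It was lower in both groups of ApoE−/− mice (log2 fold changes −1.81 and −1.28, limma adjusted p = 0.000147 and 0.000767). Vitamin E-treated against untreated aortas gave 0.53 (limma adjusted p = 0.0586). Its relative Ppargc1b was at 1558 and 1595 in B6, 1007 and 922 in untreated and 1296 and 1196 in treated aortas and was called lower in both groups of ApoE−/− mice (−0.71 and −0.34) and higher with vitamin E (0.37).

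Esrra, the nuclear receptor ERRα that binds these coactivators, took the course of Cox6a2 and Cox7a1. It was at 713 and 718 in B6, 987 and 1078 in untreated and 694 and 732 in treated aortas, with log2 fold changes of 0.53 in untreated against B6 (limma adjusted p = 0.0012), −0.53 in treated against untreated (limma adjusted p = 0.0039) and −0.01 in treated against B6 aortas (limma adjusted p = 0.955). Gabpb1, a subunit of the ETS factor GABP, was called higher in both groups of ApoE−/− mice than in B6 (0.84 and 1.13). Nrf1, whose motif was read in the promoter of Cox6a1, was at 80.7 and 83.5 in B6, 79.0 and 82.2 in untreated and 120 and 138 in treated aortas, and reached the filter on low values in treated aortas alone, so its calls, which are among those counted as higher, are not read. Tfam, the packaging factor of mitochondrial DNA, was not called.

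**Figure D5:**
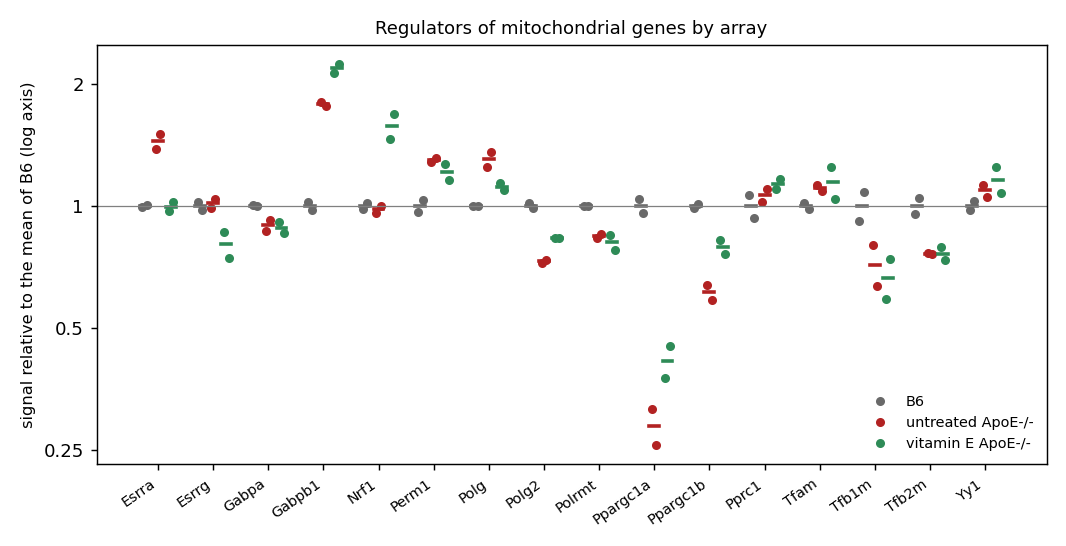
Signal intensity of 16 regulators of mitochondrial genes on each array, each by its brightest probe set and relative to the mean of the B6 arrays (vertical log axis). Points are arrays and bars are group means. Ppargc1a is lowest in untreated aortas and low in treated ones, Esrra is high in untreated aortas alone, and Gabpb1 is high in both groups of ApoE−/− mice.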

How the data were processed

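RNA was measured on 6 Affymetrix MG430 2.0 arrays, 2 a group. The deposited signal intensity of each probe set had been scaled on each array with GCOS by the authors, and is linear. The number of arrays limits the precision. Symbols come from the array annotation, and of 34945 probe sets with 1 symbol 34754 matched a RefSeq gene. A floor of 20 was applied and log2 taken. Probe sets with a group mean of at least 100 were fitted with 1 mean per group in limma 3.58.1 (R 4.3.3) with an intensity trend (residual degrees of freedom 3, prior 4.46), and p values were adjusted over all 17909. The procedure was tested on simulated data.

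The members, lists and tests were chosen with earlier results of these data known. Genes named are the tissue isoforms and their partners, the largest non-overlapping calls and the brightest genes of each complex, all of complex II, genes with opposed probe sets, and the largest calls of each list. A gene stands for its brightest probe set. Ppargc1b, Tfam, Atp5o, Uqcr10, Myl7 and the markers named for the tissue check were added after their values were seen. Atp5g2 and Atp5g3, outside these rules, were set beside Atp5g1 as the other genes of the c subunit. The lists were assembly factors, electron carriers, the tricarboxylic acid cycle, regulators, genes of mitochondrial DNA, ribosomal proteins and markers of 8 tissues or cell types. Alternatives were quantile normalization, median centring, floors of 1 and 50, other filters, no trend, a fit of the compared groups alone, a block for the replicate number, omission of each array, 1 probe set per gene, no x_at or s_at probe sets, and the methods' t-test (p of at most 0.01 and at least 2-fold). Present calls were not used here. The check of pairing correlated the differences of array 1 and array 2 across probe sets between groups (r = 0.05, −0.10 and 0.05), so same-numbered arrays were not taken as pairs.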

Additional observations from a re-analysis of the deposited data

How the results depend on the processing

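Counts of called members, given as higher and lower in untreated against B6, in treated against untreated and in treated against B6 aortas, depended on the processing, and the causes were not tested except where the alternative holds fewer probe sets or arrays. They were 14 and 25, 1 and 15, and 3 and 42 as reported. Without a filter on low values they were 7 and 5, 0 and 5, and 1 and 16. Quantile normalization raised the higher calls to 2 and 6 in the last pair of comparisons. Without the intensity trend the lower calls were 15 and 23 against B6, and the higher call with vitamin E was lost (0). A fit of only the groups compared gave 23 and 60 in untreated against B6 aortas, 0 higher with vitamin E against untreated aortas, and 23 lower in treated against B6 aortas. With 1 probe set per gene chosen before the fit, there were 6 higher in the first comparison, 0 and 8 in the second and 26 lower in the third. Without x_at and s_at probe sets, which can hybridise to several transcripts, they were 9 and 15 in the first and 26 lower in the third.

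The methods' t-test with its fold limit called 0 and 0 members on the log2 scale and 1 and 0 on the linear scale in the first comparison, and 0 in each direction in the other comparisons. After Benjamini-Hochberg adjustment of its p, 6 and 15 were called on either scale in the first comparison, 0 and 0 in the second, and 0 and 1 on the log2 scale and 0 and 0 on the linear scale in the third. At an unadjusted p under 0.05 this test gave 17 higher and 54 lower on the log2 scale in the first comparison, 0 and 19 in the second and 2 and 23 in the third. All 33 calls of named genes lost the call by the methods' t-test with its limits. Except for Ndufa4l2 in treated against B6 aortas (2.52-fold), all were under 2-fold, with Sdhc in untreated against B6 aortas the largest (1.63-fold). For the calls under 2-fold the fold limit alone was therefore enough for the loss. On the log2 scale the calls of Cox6a2 and Ndufa1 in untreated against B6 aortas, for example, missed the fold limit alone.

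Leaving out each array in turn gave 6 to 23 higher and 3 to 60 lower in the first comparison, 0 to 25 and 2 to 43 in the second, and 2 to 9 and 12 to 91 in the third. A group left with 1 array is assumed to vary like the others. The median log2 fold change ranged from −0.14 to −0.000701 in the second comparison and from −0.233 to −0.0814 in the third, and moved by less than the spread between replicates in the first. Dividing the members at a mean signal intensity of 3000, a limit chosen after seeing the data, gave 8 and 4, 1 and 9, and 2 and 8 below it, with medians of 0.194, −0.278 and 0.0277, and 6 and 21, 0 and 6, and 1 and 34 from it upwards. With the replicate number as a block the counts were 13 and 25, 0 and 12, and 3 and 36, and as a hint from the data only, the arrays of equal number did not deviate together.

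Of 495 values of the 33 named calls under 15 alternatives, 375 kept the call, 120 lost it and 0 changed sign. The calls of Cox6a2 in untreated against B6 and with vitamin E, of Sdhc in both groups of ApoE−/− mice, of Atp5g1 in untreated aortas, and of Ndufs7, Uqcrc2 and Atp5c1 in treated against B6 aortas passed in all 15. With the block 4 named calls were lost, namely Ndufa7 with vitamin E against untreated aortas (adjusted p = 0.0771) and Ndufa1, Ndufa12 and Atp5h in treated against B6 aortas (adjusted p = 0.0637, 0.05 and 0.0658).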
